A study of Mus musculus with 40 samples.

Results

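The genes described here encode the 3 TGF-beta ligands (Tgfb1, Tgfb2, Tgfb3), their receptors (Tgfbr1, Tgfbr2, Tgfbr3), and the latent TGF-beta binding proteins (Ltbp1, Ltbp2, Ltbp3, Ltbp4). They were chosen by name, without a cutoff on measured values but with earlier results of these data known. They are 10 of the 55487 genes in the count table. All 10 passed the filter on low counts and were tested among 20297 genes. Averaged over the time course, 8 of the 10 were called higher in liver without hepatocyte Nampt, against 19.2% of all tested genes, with the largest difference in Tgfb2. Tgfbr3 and Ltbp4 were called lower, against 17.3% of all, and the call of Ltbp4 held under 3 of 7 alternatives and in 16 of 38 fits that each left out 1 library, that of Tgfbr3 under 6 of 7 and in 37 of 38.

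RNA was sequenced from the whole liver of female C57BL/6JBomTac mice. Hepatocyte-specific Nampt knockout (HNKO) mice were Nampt fl/fl and carried Alb-Cre+/-, in which the albumin promoter drives the recombinase in hepatocytes. Whether the other cells of the liver kept an intact gene cannot be read from whole-liver RNA. WT mice were floxed littermates without the recombinase. Mice of both genotypes were fed a purified control diet (PD), and livers were taken after 3 days, 6 days, 12 days, or 21 days. The labels list these days as age, and the study's methods give them as time on the diet. The methods also state that the mice ate a fortified chow from weaning, so the days are not ages. The WT groups held 5, 4, 5, and 5 libraries and the HNKO groups 5, 5, 6, and 3, each library from 1 mouse, and 2 further HNKO libraries of day 21 (17 and 18) are described as Failed QC and were left out. Total counts of the 38 libraries ranged from 16151037 to 64181492. Nampt itself was called lower in HNKO liver at days 3, 6, and 12, with log2 fold changes of -0.93, -0.90, and -0.82. The log2 fold change of -0.69 at day 21 was not called (adjusted p = 0.161 by edgeR). Of the HNKO libraries, 18 of 19 lay below every WT library of their day, so the labels and the targeted gene go together although transcripts remained. The defining hepatocyte markers were abundant in every group, given in CPM, which are counts scaled to a common library size. Alb, Apoa1, and 6 others together were at 108000 to 163000 CPM in WT libraries and 68700 to 137000 in HNKO libraries.

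TGF-beta is secreted as an inactive complex in which the mature ligand is held by its own propeptide. That complex is tied to the matrix by latent TGF-beta binding proteins, and integrins, proteases, or thrombospondin release the ligand. Free ligand assembles the type II receptor (Tgfbr2) with the type I receptor kinase (Tgfbr1), which phosphorylates Smad2 and Smad3, while betaglycan (Tgfbr3) presents ligand, Tgfb2 above all, to the type II receptor. In liver the pathway is best known for driving hepatic stellate cells and portal fibroblasts to make collagen. In RNA of a whole liver, more cells of a type and more RNA per cell cannot be told apart.

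The promoter windows below, from 250 bases before to 50 bases after the transcript start, are shown because the ligand and the binders with the largest differences can be set beside the most abundant ligand. They come from RefSeq (GRCm38.p6, 5′ to 3′ on the strand of the gene). Such windows were found for 8 of the 10 genes, and Tgfb3 and Tgfbr3 had none in the table used. Capitals mark matches, searched on both strands, to CAGAC of the SMAD box, TGANTCA of the AP-1 site, TGACGTCA of the cAMP response element, GGAATG of the TEAD site, TATAAA of the TATA box, and GGGCGG of the GC box.
Tgfb1, chr7:25686752-25687051, plus strand: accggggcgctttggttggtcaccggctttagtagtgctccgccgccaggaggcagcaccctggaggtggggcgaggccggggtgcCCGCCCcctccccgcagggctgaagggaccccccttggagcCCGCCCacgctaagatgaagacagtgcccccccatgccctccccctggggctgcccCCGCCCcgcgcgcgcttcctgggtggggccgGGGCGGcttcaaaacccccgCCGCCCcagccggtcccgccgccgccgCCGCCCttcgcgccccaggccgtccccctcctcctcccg
Tgfb2, chr1:186705940-186706239, minus strand: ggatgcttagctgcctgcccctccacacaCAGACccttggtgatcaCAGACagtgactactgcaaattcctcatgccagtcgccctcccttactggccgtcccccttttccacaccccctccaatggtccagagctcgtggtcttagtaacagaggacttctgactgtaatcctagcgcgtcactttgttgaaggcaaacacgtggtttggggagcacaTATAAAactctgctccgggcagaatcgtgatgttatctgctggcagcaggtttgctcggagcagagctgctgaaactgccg
Ltbp2, chr12:84876442-84876741, minus strand: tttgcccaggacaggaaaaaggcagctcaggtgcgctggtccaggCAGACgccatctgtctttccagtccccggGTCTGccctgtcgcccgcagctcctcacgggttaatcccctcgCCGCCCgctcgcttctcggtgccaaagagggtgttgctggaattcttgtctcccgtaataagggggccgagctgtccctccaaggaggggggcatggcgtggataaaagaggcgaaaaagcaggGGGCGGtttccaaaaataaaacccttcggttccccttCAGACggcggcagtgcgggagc
Ltbp3, chr19:5740650-5740949, plus strand: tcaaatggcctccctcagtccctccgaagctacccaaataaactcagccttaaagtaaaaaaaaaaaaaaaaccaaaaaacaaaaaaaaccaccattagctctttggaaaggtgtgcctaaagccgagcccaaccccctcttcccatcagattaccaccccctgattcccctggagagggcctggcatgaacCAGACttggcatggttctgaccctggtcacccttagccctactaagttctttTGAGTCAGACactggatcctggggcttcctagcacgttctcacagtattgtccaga
The Tgfb1 window was 77.0% G or C and held 6 GC boxes and no match to the other motifs. The Tgfb2 window was 54.3% G or C, with a TATA box 31 bases before the start and a pair of SMAD boxes 221 and 204 bases before it, and no GC box. In the Ltbp2 window 3 SMAD boxes and 2 GC boxes were found. The Ltbp3 window, 48.0% G or C, held a SMAD box 58 bases before the start and an AP-1 match that ends on the start base and shares 2 letters with a second SMAD box. Of all 32851 windows in the table, 49.6% hold a SMAD box, 7.81% an AP-1 match, 1.79% a cAMP response element, 14.7% a TEAD match, 13.6% a TATA box, and 35.7% a GC box, and the median window is 52.7% G or C. These matches describe letters and not binding.

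In the genome (GRCm38, gene spans of the annotation) the ligand genes lie at chr7:25687002-25705077 (Tgfb1, plus strand), chr1:186622792-186705989 (Tgfb2, minus strand), and chr12:86056745-86079041 (Tgfb3, minus strand). The receptor genes lie at chr4:47353222-47414931 (Tgfbr1, plus strand), chr9:116084293-116175360 (Tgfbr2, minus strand), and chr5:107106570-107289629 (Tgfbr3, minus strand). The binder genes lie at chr17:75005568-75392512 (Ltbp1, plus strand), chr12:84783212-84876532 (Ltbp2, minus strand), chr19:5740904-5758532 (Ltbp3, plus strand), and chr7:27305136-27337692 (Ltbp4, minus strand). No pair of them overlaps, and Tgfb1 and Ltbp4 share a chromosome, as do Tgfb3 and Ltbp2.

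The levels of the genes differed widely within each family, compared as FPKM, which are counts scaled for exon length and library size. Among the ligands Tgfb1 was highest in WT liver, with group means of 1.43 to 1.6 FPKM, followed by Tgfb3 at 0.280 to 0.485 and Tgfb2 at 0.131 to 0.187. Tgfb1 and Tgfb3 did not overlap in any group of WT libraries, and Tgfb3 and Tgfb2 overlapped at day 6 alone. In HNKO liver the group means were 1.78 to 2.36 for Tgfb1, 0.649 to 0.822 for Tgfb3, and 0.397 to 0.622 for Tgfb2, and the libraries of the latter pair overlapped at every day. The type I receptor Tgfbr1 was at 7.41 to 7.54 FPKM in WT, Tgfbr3 at 4.80 to 6.35, and Tgfbr2 at 4.20 to 4.56. The libraries of Tgfbr1 and Tgfbr3 overlapped at days 12 and 21, and those of Tgfbr3 and Tgfbr2 at days 3, 6, and 12. In HNKO liver the means were 8.39 to 10.8 FPKM for Tgfbr1, 5.17 to 6.07 for Tgfbr2, and 4.23 to 5.09 for Tgfbr3. Ltbp4 had by far the most RNA of the binders, at 6.57 to 9.02 FPKM, against 0.446 to 0.604 for Ltbp1, 0.279 to 0.400 for Ltbp2, and 0.202 to 0.322 for Ltbp3. Ltbp4 was apart from the rest in every WT and HNKO group, while Ltbp2 and Ltbp3 overlapped at all days in both genotypes. The HNKO means were 6.03 to 7.70 FPKM for Ltbp4, 0.709 to 0.796 for Ltbp1, 0.712 to 0.836 for Ltbp2, and 0.488 to 0.670 for Ltbp3.

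**Figure D1:**
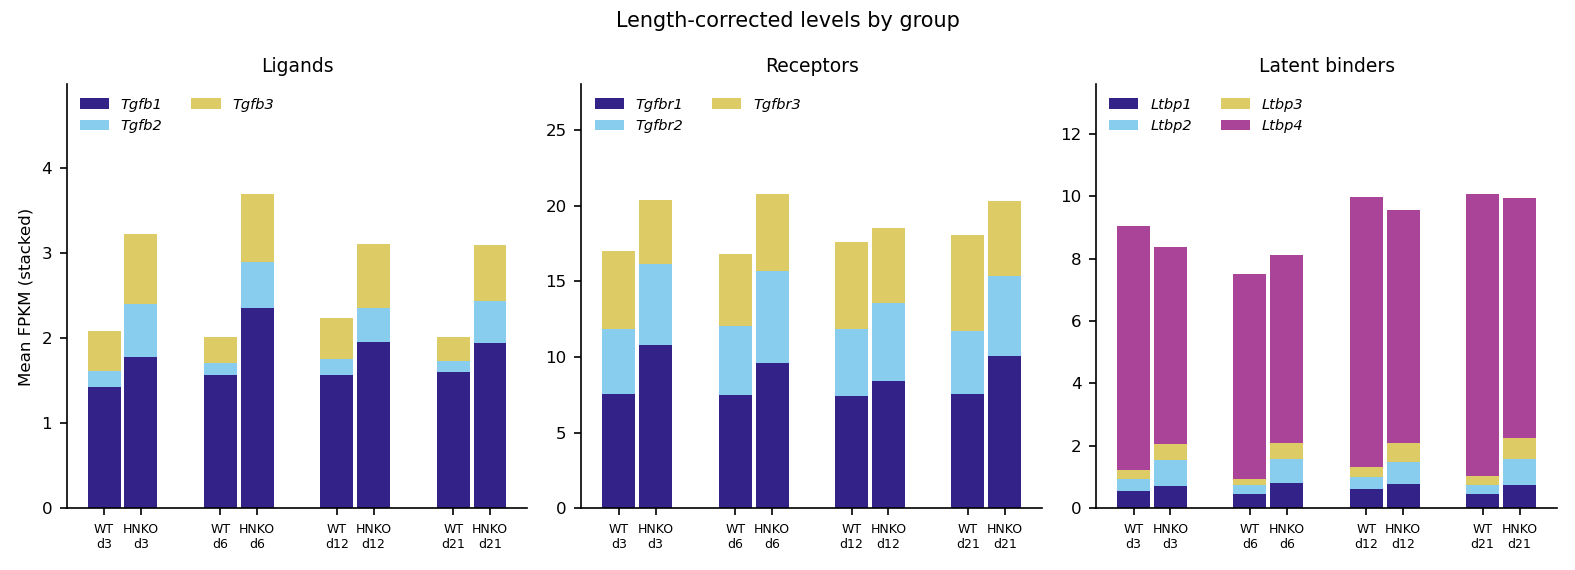
Mean FPKM of the ligands, receptors, and latent binders (stacked bars) in each genotype and day (d). Tgfb1 and Ltbp4 make up most of their families in WT liver, and the other ligands and binders take a larger share in HNKO liver.

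The make-up of the ligand and binder RNA differed between the genotypes, which is given as a description since it was chosen after the values were seen. At day 21 Tgfb1 made up 79.5% ± 4.15 (SD, n = 5) of ligand FPKM in WT liver, against 64.3% ± 7.20 (SD, n = 3) in HNKO liver. At days 3, 6, and 12 the mean shares were 68.5%, 77.7%, and 70.2% in WT and 57.2%, 64.9%, and 63.2% in HNKO, with overlapping libraries at days 3 and 12. Tgfb2 made up 6.55% ± 1.05 (SD, n = 5) in WT liver, against 15.3% ± 4.65 (SD, n = 3) in HNKO liver, and its mean share was higher in HNKO at each of the other days too. The summed ligand FPKM was 2.01 to 2.23 in the means of the WT groups and 3.09 to 3.69 in those of the HNKO groups. Summed binder FPKM was similar in both genotypes, at 7.52 to 10.1 in WT and 8.11 to 9.95 in HNKO, while Ltbp4 made up 89.7% ± 0.615 (SD, n = 5) of it in WT liver at day 21, against 78.4% ± 7.50 (SD, n = 3) in HNKO liver. Its mean share at days 3, 6, and 12 was 86.6%, 87.1%, and 86.7% in WT and 76.0%, 74.7%, and 78.2% in HNKO, with overlap at day 3.

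Tgfb2, the ligand that depends most on betaglycan, rose in HNKO liver at days 3, 6, and 21. At day 3 its log2 CPM was 0.61, -1.36, 0.03, -0.02, and 0.87 in the WT libraries and 2.57, 1.48, 1.53, 0.78, and 2.34 in the HNKO libraries. At day 6 the WT libraries were at -0.09, 0.26, -0.41, and -0.34 and the HNKO libraries at 1.91, 1.92, 1.93, 1.20, and 1.22. HNKO liver was thus higher throughout on that day. At day 21 the values were -0.51, 0.01, -0.37, -0.21, and -0.29 in WT and 2.32, 0.65, and 1.23 in HNKO. The genotypes did not overlap at days 6 and 21, and at day 3 a single HNKO library (22) fell below the highest WT library. By the quasi-likelihood test of edgeR, with p adjusted over all 20297 genes, the log2 fold change at day 3 came to 1.71 (SE 0.38, adjusted p = 0.00829). It was 1.88 at day 6 (SE 0.42, adjusted p = 0.00307) and reached 1.94 at day 21 (SE 0.42, adjusted p = 0.0105). At day 12 the HNKO libraries ran from 0.08 over a median of 1.05 to 2.06 and the WT libraries were at 0.52, 0.55, -0.34, 0.44, and -0.69, a log2 fold change of 1.11 with an adjusted p = 0.0538. Without HNKO library 37 the day 21 difference was 1.34 and was no longer called (adjusted p = 0.394), and in a fit of the day 3 libraries alone its adjusted p was 0.0526. Averaged over the days Tgfb2 was 3.16-fold higher in HNKO (log2 fold change 1.66, SE 0.20, adjusted p = 9.92e-08), and 17 of 19 HNKO libraries exceeded every WT library of their day. Its counts were low, at 7 to 161 per library with a median of 43, which limits the precision of single values.

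Tgfb3, a ligand made largely by mesenchymal cells, rose at day 6 and on average. At day 6 its log2 CPM was 0.26, 0.26, 0.37, and -0.51 in WT and 1.14, 2.28, 1.84, 0.69, and 0.54 in HNKO. The genotypes did not overlap there, and the fitted difference was 1.39 on the log2 scale (SE 0.40, adjusted p = 0.0195). The call held in 6 of the 9 fits without 1 library and was lost in a fit of that day alone (adjusted p = 0.0590). At day 21 the WT libraries were at 0.28, -0.45, 0.56, -0.28, and -0.22 and the HNKO libraries at 1.83, 0.77, and 0.63, also without overlap, but the difference was not called (log2 fold change 1.18, adjusted p = 0.102). At day 3 the WT libraries were at 0.55, 0.57, 0.47, 0.79, and 1.19 and the HNKO libraries at 2.30, 1.12, 1.03, 0.46, and 1.91, so 2 HNKO livers stood above WT, 2 lay within its range, and library 22 lay just below it. The log2 fold changes at days 3 and 12 were 0.79 and 0.64, with overlapping libraries and adjusted p of 0.193 and 0.246. Averaged over the days Tgfb3 was 2.0-fold higher (log2 fold change 1.0, SE 0.19, adjusted p = 8.86e-05).

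Tgfb1, the ligand that platelets, macrophages, and many other cells make, differed less. It rose at day 6, where log2 CPM was 3.29, 2.91, 2.99, and 2.72 in WT and 3.57, 3.85, 3.88, 3.37, and 3.08 in HNKO. A single HNKO library (31) lay within the WT range, and the fitted difference was 0.59 on the log2 scale (SE 0.20, adjusted p = 0.0430). The call held in 3 of the 9 fits that each left out 1 library of that day and was lost without a filter on low counts (adjusted p = 0.0627), with all 40 libraries (adjusted p = 0.0817), and in a fit of that day alone (adjusted p = 0.0738). At days 3, 12, and 21 the log2 fold changes were 0.31, 0.32, and 0.27 with overlapping libraries and adjusted p of 0.351, 0.272, and 0.540. Averaged over the days Tgfb1 was 1.30-fold higher (log2 fold change 0.37, SE 0.10, adjusted p = 0.00256), in 15 of 19 HNKO libraries above the WT median of their day.

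**Figure D2:**
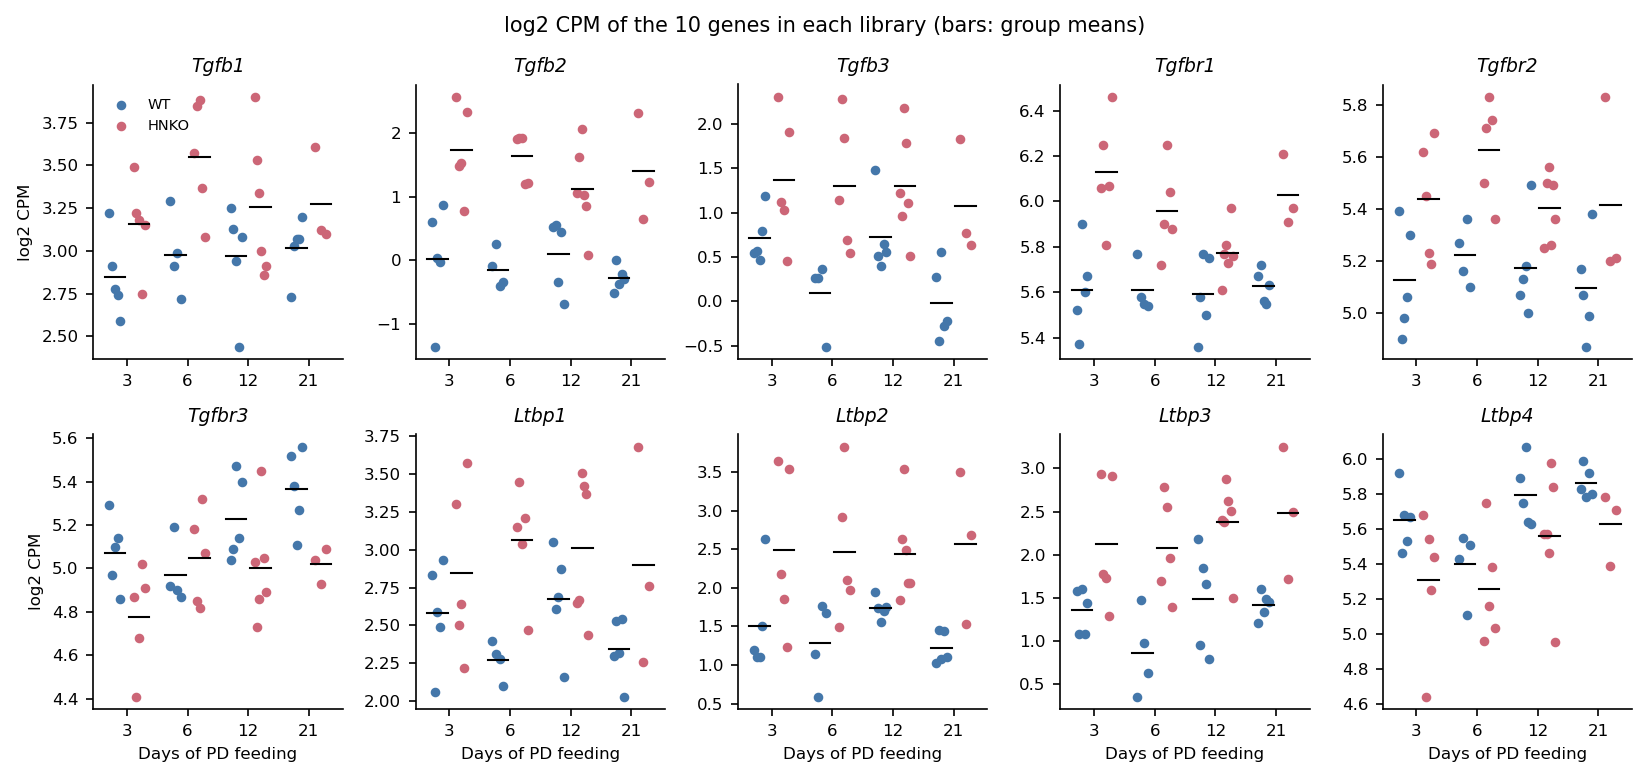
Expression (log2 CPM, y axis, a separate scale for each gene) of the 10 genes in each of the 38 libraries by days of PD feeding (x axis), with WT in blue, HNKO in red, and black bars for group means. HNKO libraries of Tgfb2 at days 6 and 21 lie above every WT library, at 0.65 to 2.32 on the latter day, while those of Ltbp4 and Tgfbr3 lie among or below the WT libraries, with 1 library of each above them.

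Tgfbr1, the type I receptor kinase, rose at 3 days by less than 1.5-fold. At day 3 its log2 CPM was 5.52, 5.37, 5.90, 5.60, and 5.67 in WT and 6.06, 6.25, 5.81, 6.07, and 6.46 in HNKO, so that 4 of 5 HNKO libraries lay above every WT library (log2 fold change 0.52, SE 0.11, adjusted p = 0.00467). In a fit of the day 3 libraries alone its adjusted p was 0.0523. At day 6 the WT libraries were at 5.77, 5.58, 5.55, and 5.54 and the HNKO libraries at 5.72, 5.90, 6.25, 6.04, and 5.88, with 1 HNKO library inside the WT range. The difference was 0.36 (SE 0.11, adjusted p = 0.0306), a call that held in 5 of the 9 fits without 1 library and was lost with all 40 libraries (adjusted p = 0.0746) and in a fit of that day alone (adjusted p = 0.0675). At day 21 the WT libraries were at 5.67, 5.72, 5.56, 5.55, and 5.63 and the HNKO libraries at 6.21, 5.91, and 5.97, without overlap. The log2 fold change of 0.42 (SE 0.12) had an adjusted p = 0.0497, close to the threshold, and the call held in 2 of the 8 fits that each left out 1 library of that day. It was lost without a filter on low counts (adjusted p = 0.0678 by edgeR), with all 40 libraries (0.128), and with the library number series as covariate (0.0862). On average Tgfbr1 was 1.29-fold higher (log2 fold change 0.37, SE 0.06, adjusted p = 3.55e-06) and 19 of 19 HNKO libraries were above the WT median of their day. The receptor showed the smallest standard error of the 10 genes, on 909 to 3262 counts per library.

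Tgfbr2, the type II receptor that binds the ligand, rose at day 6. There the WT libraries were at a log2 CPM of 5.27, 5.16, 5.36, and 5.10 and the HNKO libraries at 5.50, 5.71, 5.83, 5.74, and 5.36. The lowest HNKO library was barely above the highest WT library, at a fitted log2 difference of 0.41 (SE 0.13, adjusted p = 0.0361). The call held in 3 of the 9 fits that each left out 1 library and was lost with all 40 libraries (adjusted p = 0.168). The other days gave 0.31, 0.22, and 0.34 with adjusted p of 0.144, 0.251, and 0.186, and the average was 0.32 (SE 0.07, adjusted p = 2.01e-04), with 19 of 19 HNKO libraries above the WT median of their day.

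Tgfbr3, the betaglycan co-receptor, went the other way. At day 21 its log2 CPM was 5.52, 5.38, 5.11, 5.27, and 5.56 in WT and 5.04, 4.93, and 5.09 in HNKO, so every HNKO library lay below the WT libraries, but the difference was not called (log2 fold change -0.36, SE 0.14, adjusted p = 0.165). At day 3 the WT libraries were at 5.29, 4.97, 5.10, 5.14, and 4.86 and the HNKO libraries at 4.87, 4.41, 4.68, 5.02, and 4.91, again lower but with overlap. The log2 fold changes at days 3, 6, and 12 were -0.29, 0.08, and -0.22, none of them called. On average Tgfbr3 fell by 0.20 on the log2 scale (SE 0.06, adjusted p = 0.0173), a call lost without HNKO library 38 of day 21 (adjusted p = 0.0539) and with all 40 libraries (adjusted p = 0.0694). Of the stretches of 51 bases in its transcripts, 3.83% also occur in other genes, and 297 exon bases are shared with Gm43422 on the same strand, so a small part of its counts is uncertain.

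Ltbp2 and Ltbp3 rose together with Tgfb2. Ltbp2 lies in microfibrils and, unlike the other binders, does not hold latent TGF-beta. At day 6 its log2 CPM was 1.14, 0.59, 1.76, and 1.67 in WT and 1.49, 2.92, 3.83, 2.10, and 1.97 in HNKO (log2 fold change 1.39, SE 0.48, adjusted p = 0.0490). A single HNKO library (6) lay within the WT range, and the call held in 3 of the 9 fits without 1 library and in 5 of 8 alternatives (adjusted p up to 0.176). At day 3 the values were 1.19, 1.11, 1.11, 1.51, and 2.63 in WT and 3.64, 2.18, 1.85, 1.23, and 3.54 in HNKO, where 1 high WT library (26) overlapped with 3 HNKO libraries and the log2 difference of 1.15 was not called (adjusted p = 0.114). At day 21 the WT libraries were at 1.03, 1.46, 1.08, 1.44, and 1.11 and the HNKO libraries at 3.50, 1.53, and 2.69, a difference of 1.58 with an adjusted p = 0.0623. These libraries did not overlap, although the lowest HNKO library was close to WT. On average Ltbp2 was 2.36-fold higher (log2 fold change 1.24, SE 0.23, adjusted p = 6.06e-05), with 19 of 19 HNKO libraries above the WT median of their day. The spread between HNKO mice was the widest of the 10 genes, with a pooled SD of 0.886 log2 CPM against 0.433 in WT.

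Ltbp3, which binds the latent ligand and is needed for its secretion, was called at day 6, where log2 CPM was 0.36, 1.48, 0.98, and 0.63 in WT and 1.70, 2.78, 2.55, 1.96, and 1.40 in HNKO. HNKO library 31 alone overlapped with WT, and the fitted log2 difference was 1.29 (SE 0.36, adjusted p = 0.0155), called in 6 of the 9 fits without 1 library. At day 21 the WT libraries held 1.21, 1.6, 1.34, 1.49, and 1.45 and the HNKO libraries 3.25, 1.72, and 2.50, without overlap, and the difference of 1.22 just missed the threshold (adjusted p = 0.0512). The values at days 3 and 12 were 0.92 and 0.87, with adjusted p of 0.0889 and 0.0718. On average Ltbp3 was 2.11-fold higher (log2 fold change 1.08, SE 0.17, adjusted p = 7.20e-06).

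Ltbp1, the binder that ties latent ligand to fibrillin and fibronectin, rose at day 6 and on average. At day 6 the WT libraries had a log2 CPM of 2.40, 2.31, 2.28, and 2.10 and the HNKO libraries 3.15, 3.45, 3.04, 3.21, and 2.47. The groups did not overlap and differed by 0.83 on the log2 scale (SE 0.27, adjusted p = 0.0399). This call held in 1 of the 9 fits that each left out 1 library and was lost with all 40 libraries (adjusted p = 0.0763). At day 21 the WT libraries were at 2.30, 2.53, 2.32, 2.54, and 2.03 and the HNKO libraries at 3.68, 2.26, and 2.76, with 1 HNKO library inside the WT range. The log2 differences at days 3, 12, and 21 were 0.32, 0.37, and 0.68, with adjusted p of 0.495, 0.353, and 0.188. They were 0.12 at day 3 without HNKO library 23 and 0.21 at day 21 without HNKO library 37. The average was 0.55 (SE 0.13, adjusted p = 0.00118). Ltbp4, the most abundant binder and a partner of elastic fibres, was lower at every day by 0.12 to 0.31 on the log2 scale without a call at any of them. At day 21 its log2 CPM was 5.83, 5.99, 5.78, 5.92, and 5.80 in WT and 5.78, 5.39, and 5.71 in HNKO, and library 37 alone came level with the lowest WT library. At day 3 the WT libraries were at 5.92, 5.46, 5.68, 5.53, and 5.67 and the HNKO libraries at 5.68, 4.64, 5.54, 5.25, and 5.44, which overlapped in part. The average of -0.22 (SE 0.08) had an adjusted p = 0.0420 and held in 16 of the 38 fits that each left out 1 library.

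**Figure D3:**
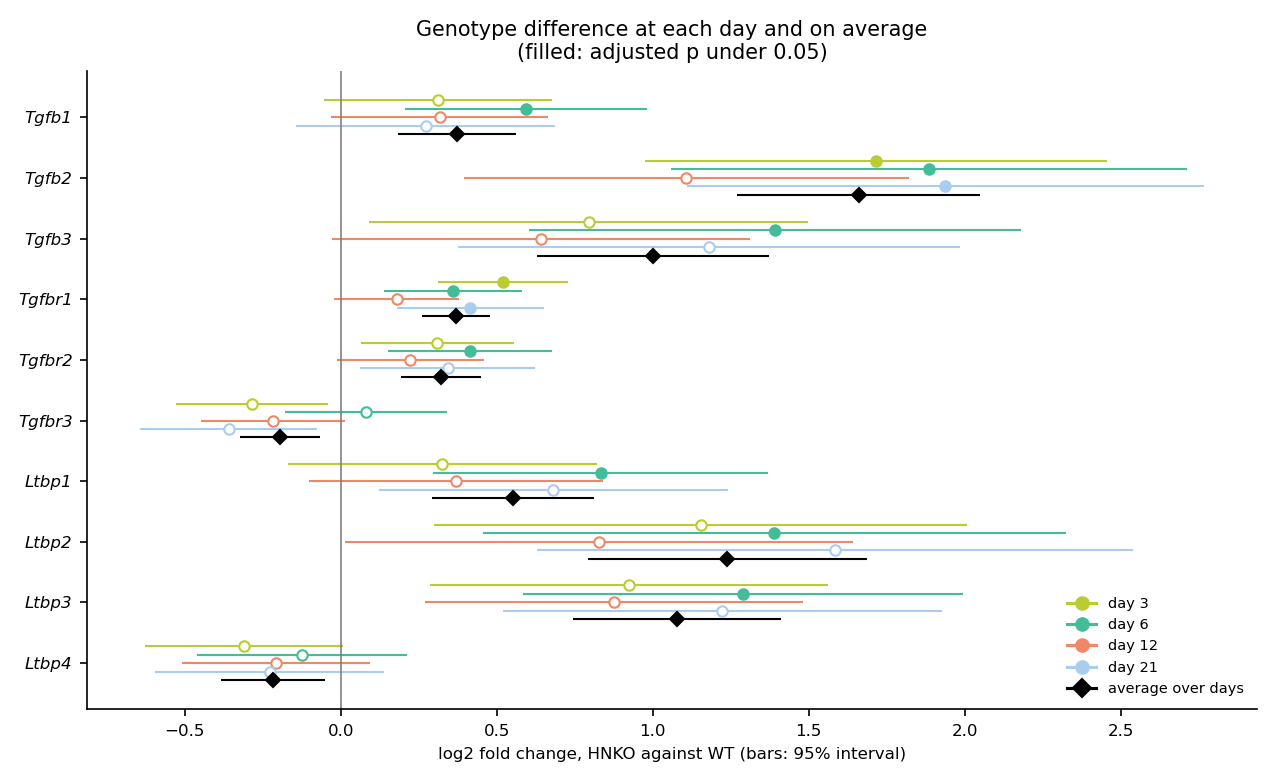
Log2 fold change of HNKO against WT (x axis, bars are 95% intervals) for each gene (y axis) at days 3, 6, 12, and 21 and on average, with filled symbols for an adjusted p under 0.05. Tgfb2 has the largest average at 1.66, and Tgfbr3 and Ltbp4 lie to the left of 0 on average.

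Counted over the 10 genes, 2 were called higher at day 3 (Tgfb2 and Tgfbr1), where 2.95% of all tested genes were called higher. At day 6, 8 were called higher, all but Tgfbr3 and Ltbp4, against 8.42% of all genes. At day 12 none was called at a background of 7.82% called in either direction, with 2 genes at an unadjusted p under 0.05 by edgeR (24.5% of all genes) and 2 called by DESeq2 (Tgfb2 and Ltbp3, against 10.1% of all genes). At day 21, 2 were called higher (Tgfb2 and Tgfbr1) against 2.21% of all genes. On average 8 were called higher and 2 lower, against 19.2% and 17.3% of all genes. Of all genes, 2.31%, 8.08%, 2.65%, and 7.25% had every HNKO library above every WT library at days 3, 6, 12, and 21, and of the 10 genes 0, 4, 0, and 5 did. The median log2 fold change of the 10 genes was 0.42, 0.71, 0.34, and 0.55 at the 4 days, while the medians over all genes were between -0.01 and 0.01.

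The count at day 6 was lower in 8 of the 9 fits that each left out 1 library of that day, and it stayed at 8 without HNKO library 31. It was 6 without HNKO library 6 or 30, and it fell from 8 to 4 without WT library 8, 3 without WT library 10, 4 without WT library 27, 2 without WT library 28, 2 without HNKO library 7, and 1 without HNKO library 29. The 9 fits called 1126 to 3027 of all genes, against 2596 with every library of that day. At day 3 the count of the 10 genes rose from 2 to 4 without HNKO library 22 and to 3 without WT library 26. Fits without 1 library of day 3 called 322 to 1668 of all genes, against 945. At day 12 the count of the 10 was 1 without WT library 14 and 2 without HNKO library 36. Such fits of day 12 called 852 to 1750 of all genes, against 1588. At day 21 the count of the 10 was 1 without any of the 5 WT libraries, 0 without HNKO library 37, and 4 without HNKO library 38. Over all genes 634 were called at that day, up to 718 in fits without 1 library, and 13 in the fit without library 37. In that fit the day 21 log2 differences of Tgfb1, Tgfb3, Tgfbr2, Ltbp2, and Ltbp3 were 0.10, 0.69, 0.12, 1.04, and 0.78, against 0.27, 1.18, 0.34, 1.58, and 1.22 with it. The exact permutation test of the difference of means at a single day, two-sided, gave p = 0.0159 for Tgfb2, Tgfb3, Tgfbr2, and Ltbp1 at day 6, which is the smallest value for 4 against 5 libraries. At day 21, where 3 against 5 libraries allow no p under 0.0357, that value was reached by Tgfb2, Tgfb3, Tgfbr1, Tgfbr3, Ltbp2, and Ltbp3. The lowest exact permutation p-value was 0.00866, for Ltbp2 at day 12, which edgeR did not call, and at day 3 Tgfb2 and Tgfbr1 had an exact permutation p = 0.0159. None of the 40 permutation p-values passed after adjustment, the lowest being an adjusted permutation p = 0.0794.

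No gene of the 10 showed a genotype difference that varied with day. The interaction test gave an adjusted p of 0.9998 for each of them, with none at an unadjusted p under 0.05, and it called 0.0% of all genes, of which 966 had an unadjusted p under 0.05. The larger count at day 6 is therefore not shown to differ from that of the other days. A day effect was called for none of the 10 genes within WT (background 5.84%) or within HNKO (background 7.9%). At an unadjusted p under 0.05 the edgeR test found Tgfbr3 in WT, where 21.2% of all genes were found, and Tgfbr1 in HNKO, where 22.9% were, so that 1 of 10 was below the background in both.

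The library numbers run from 1 to 21 and from 22 to 41. Among the 38 libraries used, both series held WT and HNKO libraries at days 3, 6, and 12, with HNKO libraries of day 21 only in the later one. HNKO minus WT means could be taken in 7 combinations of series and day. They were above 0 in 7 of 7 for Tgfb1, Tgfb2, Tgfb3, Tgfbr1, Tgfbr2, Ltbp1, Ltbp2, and Ltbp3, with ranges such as 0.78 to 2.23 for Tgfb2 and 0.72 to 1.32 for Ltbp3. They were below 0 in 7 of 7 for Ltbp4 and in 6 of 7 for Tgfbr3. With the series as a covariate in the edgeR fit, the calls of Tgfbr1 at day 21 and of Ltbp4 on average (adjusted p = 0.0575) were lost, and Tgfb2 at day 12 and Ltbp3 at day 21 gained one.

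Markers of some other liver cells moved with genotype too, and their counts stand beside the 19.2% of all genes called higher and 17.3% called lower on average. Of 9 portal fibroblast and smooth muscle markers, 6 were called higher on average, with a median log2 fold change of 0.83. The summed level of the 9 was 14.4 to 58.6 CPM in WT libraries and 17.4 to 91.1 in HNKO libraries. Not called were Gli1 and the smooth muscle genes Myh11 and Cnn1, named after their values were seen. Their log2 fold changes were 0.59, 0.43, and 0.51, with adjusted p of 0.132, 0.236, and 0.343 by edgeR. Of 6 cholangiocyte markers, 6 were higher (34.3 to 48.8 CPM in WT and 107 to 754 in HNKO). Of 10 macrophage markers, 7 were higher (323 to 787 CPM in WT and 428 to 1200 in HNKO). Among them Cx3cr1 (5.79-fold) and Ccr2 (4.61-fold) rose most, and Clec4f, Timd4, and Adgre1 were not called. These genes are named after their values were seen. Of 8 stellate cell markers, 4 were higher and 2 lower (355 to 468 CPM in WT and 313 to 549 in HNKO). Of 8 sinusoidal endothelial markers, 1 was lower and none higher (643 to 811 CPM in WT and 650 to 775 in HNKO). Of 8 hepatocyte markers, 3 were lower (108000 to 163000 CPM in WT and 68700 to 137000 in HNKO). The hepatocyte sums did not overlap at day 6 (133000 to 149000 CPM in WT and 68700 to 118000 in HNKO) and overlapped at the other days. Of 8 lymphocyte markers, 1 was higher, as was 1 of the 3 tested platelet markers. No list held a marker at 0 in every library. The part of these cells in the differences of the 10 genes was not tested.

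HNKO livers differed among themselves, and for several of the genes the same livers were highest. Library 2 held the highest HNKO value of 6 genes at day 3, among them Tgfb2, Tgfb3, Ltbp2, and Ltbp3. At day 12 library 13 held that of Tgfb2, Tgfb3, Tgfbr2, Ltbp1, Ltbp2, and Ltbp3, and at day 21 library 37 was highest for 9 of the 10, all but Tgfbr3. The day 6 maxima fell in library 29 for 5 genes and in library 7 for 4.

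To follow this beyond genotype and day, the deviation of each library from its group mean was correlated between genes over the 38 libraries, with 100000 permutations within groups and adjustment over the 45 pairs. Of these pairs 18 passed by Pearson correlation, all positive, and 19 by Spearman, with 17 passing by both. Ltbp1 and Ltbp3 were the closest pair, with r = 0.80 and rho = 0.80 (permutation adjusted p = 3e-04 for r, from the smallest p of 1e-05 that the permutations can give). Tgfb2 was correlated with Ltbp1 (r = 0.76, rho = 0.70), Ltbp3 (r = 0.70, rho = 0.66), Tgfb3 (r = 0.63, rho = 0.59), and Ltbp2 (r = 0.63, rho = 0.58). Without the 2 libraries farthest from the median those of Ltbp1 and Ltbp3 with Tgfb2 were 0.73 and 0.70. Tgfb3 went with Ltbp3 (r = 0.72, rho = 0.63) and Ltbp1 (r = 0.70, rho = 0.64). The receptors Tgfbr1 and Tgfbr2 were correlated with each other (r = 0.56, rho = 0.60). Tgfb1 had r between -0.21 and 0.45 to the other genes. It passed with Tgfb3 (r = 0.45, rho = 0.45) and Tgfbr2 (r = 0.41, rho = 0.44), and with Tgfb2 by Spearman alone (r = 0.40, rho = 0.47). Among HNKO libraries alone its r with Tgfb2, Tgfb3, and Ltbp3 was 0.66, 0.61, and 0.59. Ltbp4, which was lower in HNKO on average, passed with the binders Ltbp3 (r = 0.60, rho = 0.61) and Ltbp1 (r = 0.58, rho = 0.61), both positive. Tgfbr3 passed with none.

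Within library numbers 1 to 21 and 22 to 41 the correlation of Ltbp1 with Ltbp3 was 0.66 and 0.90, and that of Tgfb2 with Ltbp1 was 0.72 and 0.82. All 18 pairs were positive in both series, but in the earlier one r was lower by more than 1.5 times than over all libraries for 4 pairs. Those were Tgfb1 with Tgfb3 (0.15, against 0.56 in the later series), Tgfb1 with Tgfbr2 (0.17 and 0.71), Tgfb2 with Tgfb3 (0.40 and 0.78), and Tgfb3 with Tgfbr2 (0.26 and 0.60). For 17 of the 18 pairs r was larger among the 19 HNKO libraries than among the 19 WT libraries. Tgfb3 with Ltbp3 gave 0.90 in HNKO and 0.24 in WT, and Tgfb2 with Tgfb3 gave 0.83 and 0.25, whereas Tgfb2 with Ltbp1 gave 0.76 and 0.82. The difference between the genotypes in r was not tested.

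**Figure D4:**
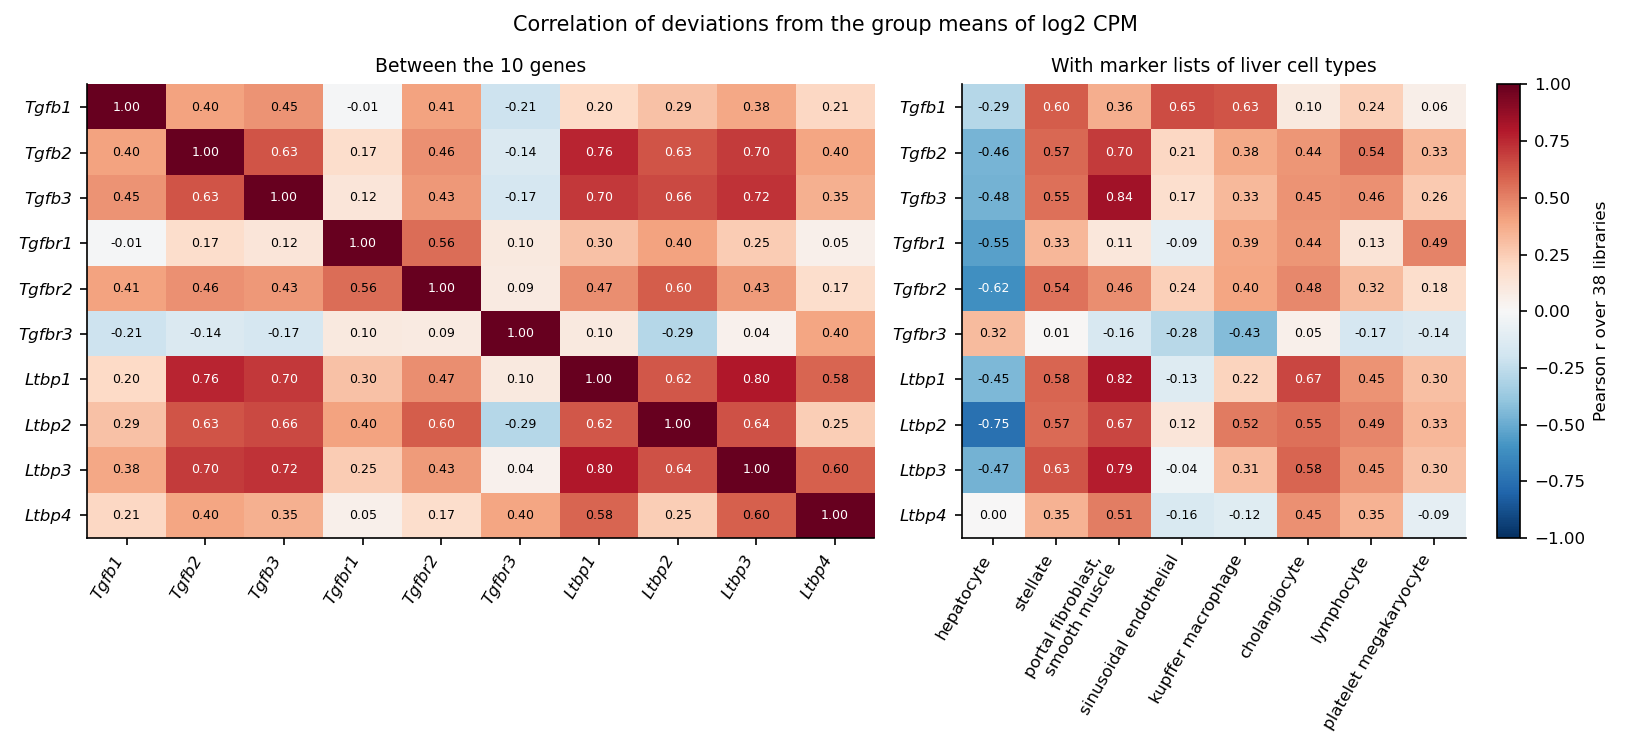
Pearson r over 38 libraries of deviations from group means in log2 CPM, between the 10 genes (left) and between them and the mean of each marker list (right), in red for positive and blue for negative values. Tgfb2, Tgfb3, Ltbp1, Ltbp2, and Ltbp3 form a block with r of 0.62 to 0.80, and Tgfb1 is highest with the sinusoidal endothelial list at 0.65.

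The same deviations were set against the mean log2 CPM of each marker list, 80 relations in all, of which 36 passed by Pearson correlation and 29 of these by Spearman too. All 36 had the same sign in both series of library numbers, with 12 lower by more than 1.5 times in the earlier one than over all libraries. This was chosen after the values were seen. Tgfb3 (r = 0.84, rho = 0.74, permutation adjusted p = 2.67e-04 for r), Ltbp1 (r = 0.82, rho = 0.82), Ltbp3 (r = 0.79, rho = 0.74), Tgfb2 (r = 0.70, rho = 0.66), and Ltbp2 (r = 0.67, rho = 0.68) were highest, among positive relations, with the portal fibroblast and smooth muscle list. Without the 2 farthest libraries these r were 0.80, 0.84, 0.76, 0.73, and 0.71. They were 0.80, 0.85, 0.75, 0.58, and 0.70 within library numbers 1 to 21 and 0.87, 0.84, 0.82, 0.79, and 0.71 within 22 to 41. Tgfb1 was highest with the sinusoidal endothelial list (r = 0.65, rho = 0.66, permutation adjusted p = 6.67e-04), the macrophage list (r = 0.63, rho = 0.58), and the stellate list (r = 0.60, rho = 0.61), and its r with the portal fibroblast list was 0.36 (permutation adjusted p = 0.135). Within library numbers 1 to 21 and 22 to 41 the first of these was 0.52 and 0.65, and without the 2 farthest libraries it was 0.62. Ltbp2 (r = -0.75, rho = -0.69) and Tgfbr2 (r = -0.62, rho = -0.63) ran against the hepatocyte list, as did, less closely, Tgfbr1 (r = -0.55, rho = -0.37), Tgfb3 (r = -0.48, rho = -0.43), and Tgfb2 (r = -0.46, rho = -0.46). With the cholangiocyte list Ltbp1 (r = 0.67, rho = 0.72), Ltbp3 (r = 0.58, rho = 0.62), Ltbp2 (r = 0.55, rho = 0.49), Tgfbr2 (r = 0.48, rho = 0.50), Tgfb2 (r = 0.44, rho = 0.44), and Tgfbr1 (r = 0.44, rho = 0.37) passed. The Tgfbr1 relations with the hepatocyte and cholangiocyte lists passed by Pearson alone (permutation adjusted p for rho of 0.0914 and 0.0898). Without the 2 farthest libraries their r was -0.37 and 0.29, and it was -0.24 and 0.22 within library numbers 1 to 21 and -0.69 and 0.62 within 22 to 41. Tgfb3 with the hepatocyte list also passed by Pearson alone (permutation adjusted p for rho of 0.0568). The stellate list passed with 7 of the genes, of which Tgfb3, Ltbp1, and Ltbp2 did not pass by Spearman, and the lymphocyte list with 6. Tgfbr3 passed with no list.

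Among the tested genes outside the 10, those most like each in these deviations were named as a description, without a test. Tgfb1 was most like Fcer1g (r = 0.87), Cmklr1 (r = 0.86), and C1qa (r = 0.84), genes of macrophages and other myeloid cells. Tgfb2 was most like Aldh1a2 (r = 0.77), Mgl2 (r = 0.76), and Zfp462 (r = 0.76). Tgfb3 was most like Ccdc80 (r = 0.85), the matrix Gla protein gene Mgp (r = 0.84), and Ptgfrn (r = 0.84). Ltbp1 went with the protease inhibitor gene Timp2 (r = 0.87), Plxdc2 (r = 0.84), and Tnxb (r = 0.84). Ltbp2 went with the fractalkine receptor gene Cx3cr1 (r = 0.92), which is also in the macrophage list, and with Fstl1 (r = 0.92) and Emp1 (r = 0.91). Ltbp3 went with the collagen VI genes Col6a2 (r = 0.89) and Col6a1 (r = 0.88) and with Timp2 (r = 0.85). Ltbp4 went with Tnxb (r = 0.73), Lpar1 (r = 0.72), and Gata5 (r = 0.72). For the receptors the closest were Myef2, Actr3, and Slc26a2 with Tgfbr1 (r = 0.76 to 0.78), Clmp, Smpd3, and Smoc2 with Tgfbr2 (r = 0.80 to 0.83), and Wif1, Cped1, and Papln with Tgfbr3 (r = 0.65 to 0.71).

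The rest of the pathway was read from lists of named genes. Over all tested genes 2.95%, 8.42%, 4.56%, and 2.21% were called higher at days 3, 6, 12, and 21, and 19.2% higher and 17.3% lower on average, and the counts below stand beside these shares. Of 18 genes that store, release, or process the latent ligand, 7, 11, 6, and 6 were called higher at days 3, 6, 12, and 21, and 12 were called higher and 1 lower on average, with a median log2 fold change of 0.39 against -0.01 over all genes. Thrombospondin 1 (Thbs1), which frees the ligand from its propeptide, was 3.77-fold higher on average and was called at each day, with log2 fold changes of 1.25 to 2.98. The microfibril genes Fbn2 and Fbn1, on which binders are anchored, were 12.8-fold and 2.19-fold higher. The integrin subunit gene Itgb8, part of a receptor that releases latent ligand, was 2.27-fold higher, and Emilin1, which restrains the processing of the propeptide, was 1.57-fold higher. The protease gene Furin, which cuts that propeptide, fell at days 6, 12, and 21 (average log2 fold change -0.40, adjusted p = 1.57e-06), and it was named after its values were seen.

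Of the 8 tested genes for other receptors of the superfamily, none was called higher at any day or on average. Acvr2b at day 3, Acvr2a at day 12, and Acvr2a and Eng on average were called lower, and they are named after their values were seen. Of 6 Smad genes, 1 was called higher at days 6 and 12, which was the signal carrier Smad3 with log2 fold changes of 0.25 and 0.25 (adjusted p = 0.0359 and 0.0325). On average Smad3 was called higher and Smad4 lower, and the list median was -0.01.

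Of 15 inhibitors 7 were called higher and 2 lower on average, the latter a share no larger than that over all genes. Pmepa1, a feedback inhibitor that holds Smad2 and Smad3, was called at each day (2.10-fold on average, adjusted p = 2.20e-06). The ligand-binding proteoglycan gene Bgn was 1.54-fold higher, and Ppm1a, whose product removes phosphate from Smads, fell by 0.31 on the log2 scale. The feedback inhibitor Smad7 gave an average of 0.25 (adjusted p = 0.206) and is named after its value was seen.

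Of 15 genes known as targets of the pathway, 5, 11, 7, and 8 were called higher at days 3, 6, 12, and 21 and 14 on average, with a median of 1.23. Timp1, a protease inhibitor, was 22.5-fold higher on average, the collagen genes Col1a1 and Col3a1 6.68-fold and 3.73-fold, the matrix gene Tnc 4.12-fold, and Tgfbi, named for its induction by TGF-beta, 1.51-fold. Many of these genes are also made in larger amounts by mesenchymal and immune cells, and the markers of those cells moved as given above, so the part of the pathway in their rise was not tested.

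**Figure D5:**
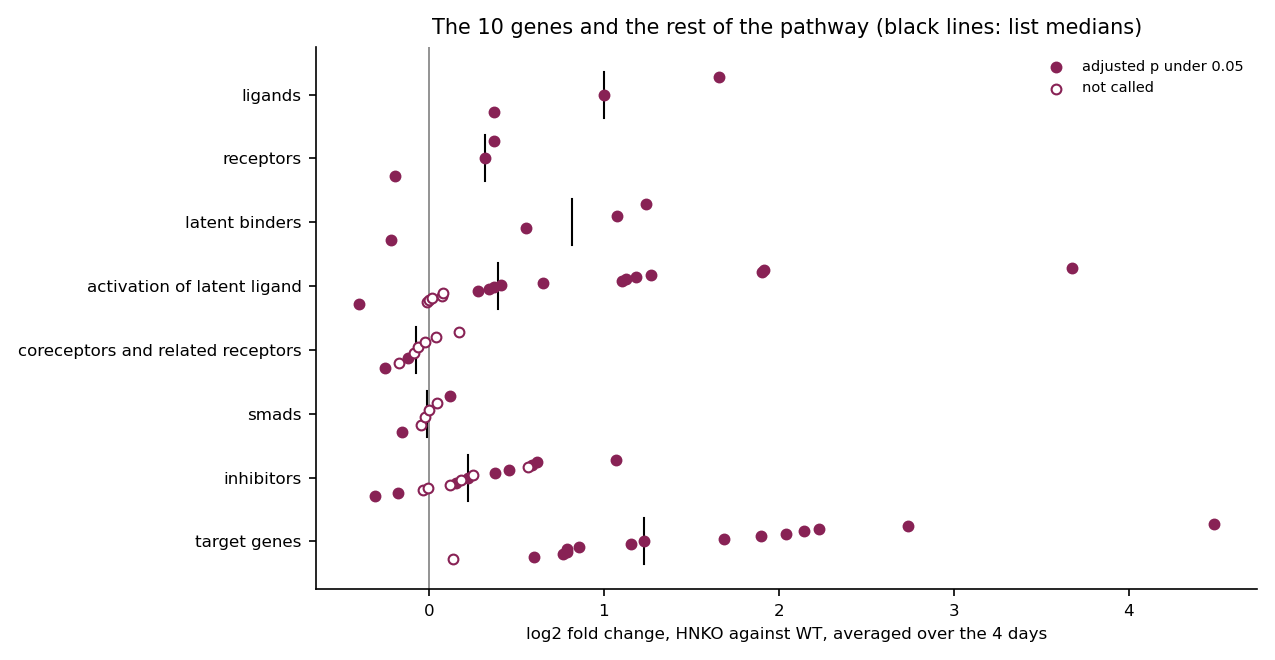
Average log2 fold change of HNKO against WT over the 4 days (x axis) for each tested gene of the 8 lists (y axis), filled where the adjusted p was under 0.05, with list medians as black lines. Target genes have a median of 1.23 and 14 of 15 filled points, while Smads and other receptors sit near 0.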

How the data were processed

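Total RNA of whole liver was depleted of ribosomal RNA and sequenced by the authors, who aligned reads with STAR 2.7.2b to GRCm38, counted fragments with featureCounts 1.6.4 on GENCODE M22 genes, and deposited raw counts per gene without normalization. Whether counting used the strand is not given in the sources used here. Columns of no mapped sample numbered 0. The 10 genes, the pathway and marker lists, and the tests were chosen with earlier results of these data known. Named are all 10, the pathway genes called at 2 or more days (at most 5 per list), and the 3 genes most like each of the 10, and other genes are marked as named after their values were seen.

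Genes were filtered by edgeR (minimum count 10, minimum total count 15, minimum proportion 0.7), normalized with TMM factors, and modelled in edgeR 4.0.16 with a mean for each of 8 groups over 38 libraries (R 4.3.3, legacy quasi-likelihood computation). Benjamini-Hochberg adjustment ran over 20297 genes, and those with an adjusted p under 0.05 were called. The average contrast weights the 4 days equally. Log2 CPM used a prior count of 2, and FPKM used exon lengths of GENCODE release M21. Intervals are 95%. Permutation tests and correlations used scipy 1.17.1 and numpy 2.4.6. Depth, 16151037 to 64181492 counts per library, and 3 to 6 mice per group limit the precision. On simulated counts with a log2 fold of 2, 96% to 98% of changed genes were recovered at the 4 days. Every daily difference of the 10 genes was smaller (at most 1.94, Tgfb2 at day 21), and recovery at such sizes was not tested. Alternatives were DESeq2 1.42.0, its size factors, other filters, all 40 libraries, a fit per day, the newer edgeR computation, library number series, and leaving out each library.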

Additional observations from a re-analysis of the deposited data

Results flagged for a closer look

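Single libraries that stood far from the rest of their group were searched in the 70 groups of 4 to 6 libraries, and 5 were found, where chance alone gives about 1 in 20 groups. Tgfb3 was low in WT library 28 of day 6 (log2 CPM -0.51, others 0.26 to 0.37) and high in WT library 14 of day 12 (1.48, others 0.40 to 0.65). Tgfbr3 was high in WT library 10 of day 6 (5.19, others 4.87 to 4.92). Ltbp2 was high in WT library 26 of day 3 (2.63, others 1.11 to 1.51), and Ltbp3 was low in HNKO library 36 of day 12 (1.50, others 2.38 to 2.88).

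The HNKO libraries 17 and 18 of day 21, described as Failed QC and used in no comparison above, had 73.02% and 60.39% of genes at 0, against 46.55% to 55.62% in the 38 others. For the values below, libraries 17 and 18 were scaled by TMM factors over all 40 libraries and the WT libraries by those over 38. Small margins are therefore uncertain. Libraries 17 and 18 both lay above every WT library of that day for 3 of the 10 genes and for 9.44% of all tested genes. Both lay below every WT library for none of the 10 and for 24.1% of all. Tgfb2 was at 1.34 and 1.50 log2 CPM (WT -0.51 to 0.01), Ltbp1 at 4.03 and 3.31 (WT 2.03 to 2.54), and Ltbp3 at 1.62 and 1.63 (WT 1.21 to 1.6). The Ltbp3 values exceeded the highest WT library by less than the spread within WT, so its place among the 3 genes is uncertain. The 2 libraries differed from each other for some of the other genes. Ltbp2 had no counts in library 17 and was at 3.45 in library 18 (WT 1.03 to 1.46), and Tgfbr2 was at 4.22, below every WT library (4.87 to 5.38), in library 17 and at 5.61, above them, in library 18.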

How the results depend on the processing

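No result reversed. Of 1145 values of the 10 genes under other settings, 1038 kept their direction and side of the threshold, 87 lost their call, and 20 gained one. On average over the days the 8 higher genes were called under every alternative and without each of the 38 libraries, except that Tgfb2 could not be included where at least 10 counts were required in every library. The calls of Tgfbr3 and Ltbp4 did not hold throughout, as given above, with Ltbp4 called under 3 of 7 alternatives. The number of the 10 genes called was, at day 3, 1 with at least 10 counts in every library and 0 in a fit of that day alone. At day 6 it was 3 with all 40 libraries and 4 in a fit of the day alone. At day 12 it was 2 with DESeq2 and 1 with the library number series as covariate. At day 21 it was 4 with DESeq2, 1 without a filter on low counts, and 4 in a fit of the day alone. Without 1 library each it ran from 2 to 4, 1 to 8, 0 to 2, and 0 to 4 at days 3, 6, 12, and 21. Over all genes, 945, 2596, 1588, and 634 were called at these days. DESeq2 called 1428 at day 3 and 994 at day 21. All 40 libraries gave 331, 1321, 624, and 1350, and fits of 1 day alone gave 420, 1325, and 867 at days 3, 6, and 12. Without 1 library each the counts ran from 322 to 1668, 1126 to 3027, 852 to 1750, and 13 to 718. The median r of the gene pairs that passed was 0.31 in WT libraries and 0.78 in HNKO libraries. The cause of these changes was not tested. No paired analysis was possible because the groups share no library or replicate number. Low counts of Tgfb2, Tgfb3, Ltbp2, and Ltbp3 and 3 HNKO mice at day 21 limit what could be detected.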
